A study of Mus musculus with 2 samples.

Results

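The nuclear genes of the mitochondrial respiratory chain and of ATP synthase were described in cultured mouse intestinal stem cells. Members were taken by gene symbol. They were all genes whose symbol begins with Nduf, Uqcr, Cox4 to Cox8 or Atp5, together with Sdha, Sdhb, Sdhc, Sdhd, Cyc1 and Cycs. This gave 92 of the 18944 genes listed. Of these, 75 encode subunits of complexes I to V, 6 are tissue-restricted isoforms or a paralogue of complex IV subunits, and 9 were set apart as assembly or associated factors. The remaining members were Cycs (cytochrome c) and Cox7a2l (a factor of respiratory supercomplexes).

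RNA was sequenced from 1 wild-type (WT) and 1 Stat6 knockout (KO) library, and the comparison asks how expression differs without STAT6, the transcription factor activated by interleukin 4 and interleukin 13. Both cultures carried Lgr5GFP-CreERT2, which couples expression of GFP and tamoxifen-inducible Cre to the stem cell gene Lgr5, and the labelled age was 2 months. The KO arose through lentiviral CRISPR/Cas with Stat6 guide RNAs and a screen for deficient cells. Whether WT cells were given a control virus, and whether the KO was 1 clone, are details that the labels leave out. With 1 library per genotype there is no replicate check, and no test of genotype was possible for any value below.

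The respiratory chain passes electrons from NADH through complex I, and from succinate through complex II, to coenzyme Q. Complex III then hands them to cytochrome c, and complex IV passes them to oxygen. Complexes I, III and IV pump protons across the inner membrane, and ATP synthase (complex V) uses the returning protons to make ATP. Complexes I, III, IV and V each combine nuclear subunits with subunits encoded in mitochondrial DNA, whereas complex II, which is also the succinate dehydrogenase of the citric acid cycle, is built from nuclear genes alone. The mitochondrially encoded subunits were not analysed here. In the intestine both crypt stem cells and absorptive enterocytes use this pathway. Many of these genes have processed pseudogenes with near-identical sequence, so values of single genes are uncertain where reads could be divided among copies.

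Levels were in FPKM, which counts sequenced fragments relative to transcript length and library size, so they can be set side by side between genes. Differences are given as a log2 ratio of KO over WT after 1 FPKM was added to both. A gene counted as measured if either library reached 1 FPKM. By that rule 12079 genes and 89 of the 92 members were measured. The sum over all genes was 504214 FPKM for WT and 496255 FPKM for KO. From the smallest steps of the values, depth was estimated at 19900000 reads in WT and 20100000 in KO. Only depths below 30000000 reads were searched, so the average of 59000000 reads that the labels state could not have been returned. All measured genes together had a median of -0.18. With a TMM (trimmed mean of log ratios) factor, which shifted every gene by about 0.20, that median was -0.00, so the sign of a small ratio depends on the scaling.

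Stat6 itself read 41.3 FPKM (WT) and 44.2 FPKM (KO). A small CRISPR insertion or deletion need not lower transcript abundance, and the genotype label is therefore unchecked by RNA level. The 3 pan-epithelial markers summed to 4643 FPKM (WT) and 3334 FPKM (KO). Among them Epcam was at 577 and 531 FPKM, Cdh1 at 318 and 272 FPKM and Krt8 at 3748 and 2531 FPKM. In contrast Lgr5, the defining marker of the labelled cell type, was at 1.79 and 1.88 FPKM. The 5 markers of Lgr5 stem cells summed to 49.5 and 44.4 FPKM. Of 7 enterocyte markers 6 stood 2-fold or more above WT in KO, and their 7-gene sum was 3145 FPKM for WT and 10397 FPKM for KO. Of 5 cell cycle markers none passed 2-fold, with sums of 259.9 and 176 FPKM. The 5 white blood cell markers summed to 39.4 and 16.1 FPKM, the 4 endothelial markers to 9.47 and 4.65 FPKM and the 4 fibroblast markers to 3.97 and 1.76 FPKM. None of 4 muscle markers reached 1 FPKM, and no marker of these lists was at 0. The part of these shifts in the values below was not tested. In bulk RNA, fewer cells of a type and less RNA per cell cannot be told apart.

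Respiratory chain genes were close in level in the 2 libraries. None of the 89 measured members was 2-fold apart, where 2-fold was passed upward in KO by 2.44% of all measured genes and downward by 2.18%. All measured genes had a lower median level in WT, 11.8 FPKM against 129 FPKM for the measured members. A 2-fold share among genes of like level was not computed. As deposited, 38 of the 75 subunits lay within 10% of their WT level and 72 within 25%. The shares of all measured genes within these limits were not computed. The TMM factor of 1.15 is wider than the 10% limit, so the first count depends on the scaling. At a threshold of 1.25-fold, 1 subunit (1.33%) was higher and 8 (10.7%) were lower in KO. The same threshold was passed upward by 11.4% of all measured genes and downward by 32.9%. Among genes at 10 FPKM or more the shares were 12.9% and 28.2%. With the TMM factor 10 subunits (13.3%) were higher and 0 lower, against 19.8% and 17.7% of all measured genes. The split of subunits between the directions thus depended on the scaling. These thresholds apply to ratios after 1 FPKM was added. Their median log2 ratio was -0.06, which is 0.12 above the median of all genes, and 51 of 75 lay above that median. As deposited, 53 of 75 subunits (70.7%) had a ratio below 0, close to the 69.6% of all measured genes. With the TMM factor 21 (28%) did, against 50.4% of all genes.

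**Figure D1:**
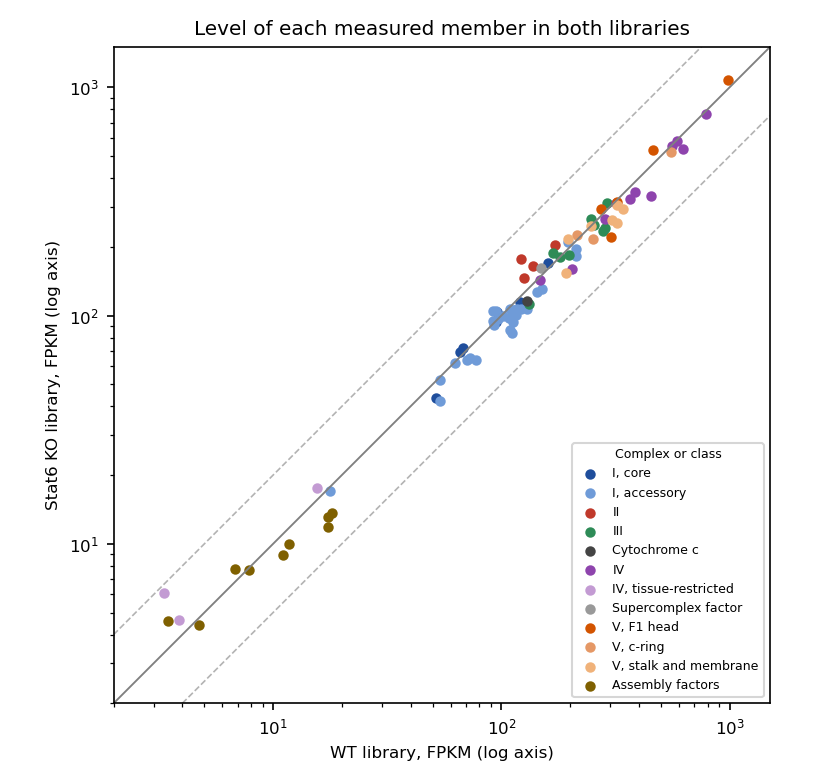
FPKM of each of the 89 measured members in the WT library (x axis, log scale) and the Stat6 KO library (y axis, log scale), coloured by complex or class. The solid line marks equal values and the dashed lines a 2-fold difference, and no member lies outside them.

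The complexes were not alike. Complex II stood higher in KO for all 4 of its genes (median log2 ratio 0.25), where 30.3% of all measured genes read above 0. The median was -0.02 for complex III, -0.07 for complex V, and -0.11 for both complexes IV and I. This order was the same under 8 changes of pseudocount, scaling and minimum level. Most of these changes could not have altered it. A scaling shifts all these genes almost alike, and every subunit lay above each minimum. The order is therefore no sign of stability. By the mean over members complex II was also first, and complexes IV and I changed places. None of the 71 subunits of the other complexes had a ratio as high as the lowest of complex II, although the nearest was close, with Atp5a1 at 0.19 and Sdha at 0.20. With the TMM factor the medians of complexes I, III, IV and V were positive, at 0.09, 0.18, 0.09 and 0.13, and that of complex II was 0.45.

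**Figure D2:**
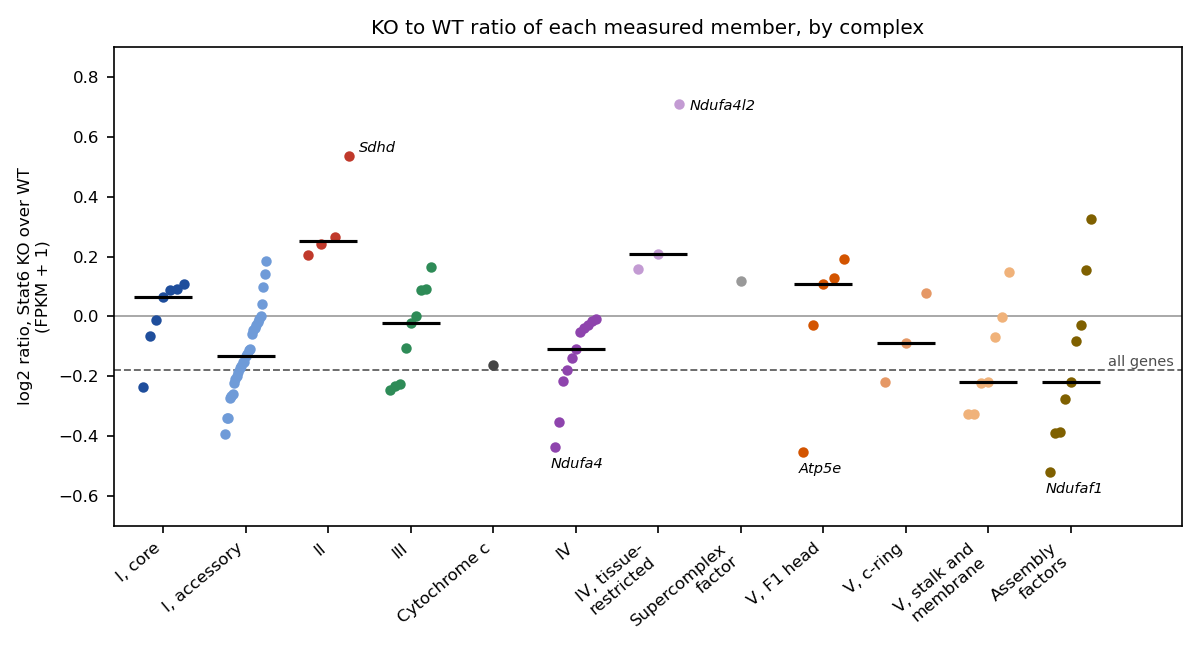
Log2 ratio of Stat6 KO over WT (FPKM + 1) for each measured member, 1 point per gene, grouped by complex or class along the x axis. Black bars are medians, the solid line is 0 and the dashed line is the median of all measured genes (-0.18). All 4 complex II genes lie above 0, with Sdhd at 0.53.

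Nuclear respiratory genes are known for promoters that bind NRF1, GABP (an ETS factor) and YY1. Promoter sequences, from 250 bases before to 50 after the start site, were taken from RefSeq on build GRCm38.p6, which held 63 of the 75 subunits. Each motif was searched without mismatch on both strands. The NRF1 core GCGCATGC was in the promoters of 10 of 63 subunits (15.9%), against 6.07% of 9543 measured genes. The YY1 core AAGATGGC was also in 10 of 63 (15.9%, against 5.46%), in 8 of them after the start site. The ETS core CCGGAAGT was in 5 (7.94%, against 9.49%). No subunit promoter held both the NRF1 and the YY1 core, and 24 held at least 1 of the 3.

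The NRF1 core did not mark 1 direction of difference. Subunits with it had log2 ratios from -0.32 (Atp5k) to 0.27 (Sdhb), with a median of -0.13, and those without it had a median of -0.07. The stretches around the core are shown for 6 members that span this range, each upstream of the annotated start. Capitals mark the core, and 10 capitals mark matches on both strands that overlap. Positions are chr4:140961192-140961249 (+ strand) for Sdhb, chr15:82354342-82354399 (− strand) for Ndufa6, chr5:115349086-115349145 (− strand) for Cox6a1, chr6:50566597-50566654 (− strand) for Cycs, chr15:102671055-102671114 (− strand) for Atp5g2 and chr5:108434415-108434474 (− strand) for Atp5k.
Sdhb: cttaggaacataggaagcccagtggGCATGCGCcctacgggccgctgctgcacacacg
Ndufa6: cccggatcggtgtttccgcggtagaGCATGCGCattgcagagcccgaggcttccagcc
Cox6a1: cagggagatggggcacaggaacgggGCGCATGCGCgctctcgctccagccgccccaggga
Cycs: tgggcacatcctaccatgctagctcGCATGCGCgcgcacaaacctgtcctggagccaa
Atp5g2: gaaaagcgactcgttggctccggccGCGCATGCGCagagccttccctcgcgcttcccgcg
Atp5k: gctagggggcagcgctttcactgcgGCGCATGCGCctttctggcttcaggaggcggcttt
The core began 54 bases before the start site in Sdhb, 60 in Cycs and 162 in Cox6a1. A match describes these letters and is not a shown binding site.

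All 4 genes of complex II were higher in KO, Sdhd by more than the other 3. Of all measured genes 30.3% read above 0 as deposited and 49.6% with the TMM factor. Sdhd (Entrez gene 66925), a membrane anchor that helps to hold the haem and the coenzyme Q site, had 122 FPKM in the WT library and 177 FPKM in the KO library (log2 ratio 0.53). This was the largest ratio of the 75 subunits and the only one past 1.25-fold upward as deposited, where 11.4% of all measured genes were. With the TMM factor all 4 genes were among the 10 subunits past 1.25-fold upward, against 19.8% of all measured genes. At the estimated depth the Sdhd values correspond to about 2891 and 4240 reads. Counting error is thus small, which says nothing of variation between cultures. Sdhb (Entrez gene 67680), the iron-sulphur subunit, was at 137 and 165 FPKM (0.27). Sdhc (Entrez gene 66052), the other membrane anchor, was at 172 and 203 FPKM (0.24). Sdha (Entrez gene 66945), the flavoprotein that oxidises succinate, was at 126 and 145 FPKM (0.20). In WT the 4 levels lay within 1.41-fold of one another, the narrowest range of the 5 complexes, and in KO within 1.40-fold.

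Summed over subunits, complex II reached 556 FPKM (WT) and 689.8 FPKM (KO), a ratio of 1.24. The complex I sum was 3810.1 and 3569.8 FPKM (ratio 0.937), that of complex III 2034 and 1966 FPKM (0.966), that of complex IV 4712 and 4316 FPKM (0.916), and that of complex V 5279 and 5123 FPKM (0.971). Ratios between complexes within a library do not depend on scaling. Complex II transcripts amounted to 14.6% of the complex I sum in WT and 19.3% in KO, and to 27.4% and 35.1% of the complex III sum. All subunits together took 3.25% of summed FPKM in WT and 3.16% in KO.

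**Figure D3:**
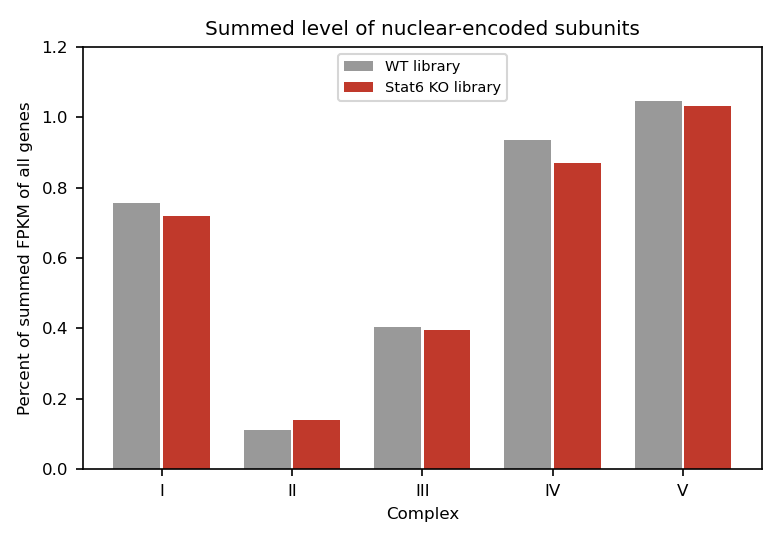
Summed FPKM of the nuclear-encoded subunits of each complex (x axis) as a percent of the summed FPKM of all genes (y axis, from 0) in the WT and Stat6 KO libraries, 1 library each. Complex II is the only one with the taller bar in KO, at 0.110% in WT and 0.139% in KO.

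In complex I the 7 core subunits, which carry the flavin and the iron-sulphur clusters, were nearly level as deposited (median 0.07). The 29 accessory subunits had a median of -0.13, which is 0.05 above the median of all genes. As deposited 24 of 29 (82.8%) were below 0, against 69.6% of all measured genes, and with the TMM factor 8 of 29 were. Among core subunits Ndufs7, next to the coenzyme Q site, was at 95.8 and 103 FPKM (0.11), and Ndufv2, an iron-sulphur subunit, at 67.8 and 72.3 FPKM (0.09). Ndufs1, the largest iron-sulphur subunit, was at 65.8 and 69.0 FPKM (0.07), and Ndufs3 at 94.4 and 93.5 FPKM (-0.01). Ndufv1, which binds NADH and the flavin, was at 120.01 and 115 FPKM (-0.06). The iron-sulphur subunit Ndufs8 had the lowest core level and ratio, 51.6 and 43.6 FPKM (-0.24). Core subunits thus lay on both sides of 0 as deposited, and none passed 1.25-fold. Their median was 0.25 above the median of all genes. With the TMM factor it was 0.27, and 6 of 7 were above 0.

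The accessory subunits surround this core and stabilise it. The highest ratio was that of Ndufv3, a subunit of the NADH-oxidising module, at 91.7 and 104 FPKM (0.19), followed by the membrane-arm subunit Ndufb10 at 94.4 and 104 FPKM (0.14). Ndufa6, which docks the mitochondrial acyl carrier protein, was at 195 and 209 FPKM (0.10) and Ndufa9, near the coenzyme Q site, at 96.7 and 96.8 FPKM (0.00). The 3 accessory subunits past 1.25-fold downward were Ndufs5 (111 and 84.2 FPKM, -0.39), Ndufa1 (109 and 86.1 FPKM, -0.34) and Ndufs4 (53.7 and 42.3 FPKM, -0.34). They were 10.3% of the accessory subunits, a smaller share than the 32.9% of all measured genes past that threshold. Ndufs5 and Ndufa1 belong to the membrane arm. Ndufs4 is needed for a stable NADH-oxidising module, and its loss causes Leigh-like disease in mice. Ndufb2 (-0.27), Ndufb6 (-0.26) and Ndufc2 (-0.26) followed. Ndufa8 was at 116 and 100.1 FPKM (-0.21) and Ndufc1 at 92.1 and 94.8 FPKM (0.04). Of all 29, 13 were within 10% of their WT level as deposited, a share that was not computed for all genes. With the TMM factor 0 subunits of any complex passed 1.25-fold downward.

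Levels within complex I spanned 12.3-fold in KO, the widest range of the 5 complexes, because of 1 gene. Ndufa11, a membrane-arm subunit, was at 17.8 and 17.0 FPKM and was the only subunit of the 75 under 20 FPKM. The next lowest accessory subunits were Ndufs4 and Ndufa13, the latter at 53.9 and 52.2 FPKM. The highest were Ndufa3 at 213 and 183 FPKM (-0.22), Ndufb9 at 212 and 196 FPKM (-0.11) and Ndufa6. Ndufab1, the mitochondrial acyl carrier protein, which also serves fatty acid synthesis, was at 108 and 97.4 FPKM (-0.15). The low position of Ndufa11 was shared by both libraries, and its ratio was -0.06.

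In complex III, as deposited, the larger subunits were level or slightly higher in KO, and the small ones lower except for Uqcrh. With the TMM factor the median of the complex was 0.18, and 3 of 9 subunits were below 0, against 50.4% of all measured genes. Uqcrfs1, the Rieske iron-sulphur protein, was at 168 and 188 FPKM (0.17). The core proteins Uqcrc1 and Uqcrc2 were at 247 and 263 FPKM (0.09) and at 180.5 FPKM in both libraries (0.00). Cyc1, the cytochrome c1 haem protein, was at 254 and 249.9 FPKM (-0.02). The small hinge protein Uqcrh had the highest level, 292 and 310.1 FPKM (0.09). Of the other small subunits Uqcrb was at 197 and 183 FPKM (-0.11), Uqcrq, with the lowest level, at 132 and 113 FPKM (-0.23), Uqcr11 at 285 and 243 FPKM (-0.23) and Uqcr10 at 279 and 235 FPKM (-0.25). Cycs, cytochrome c, which also takes part in apoptosis, was at 129 and 115 FPKM (-0.16).

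In complex IV all 11 nuclear subunits read below 0 as deposited, as did 69.6% of all measured genes, and 7 of the 11 lay above the median of all genes. Cox8a was at 558 and 555 FPKM (-0.01) and Cox4i1, the regulatory subunit that binds adenine nucleotides, at 585 and 579 FPKM (-0.01). Cox6a1 had the highest level, 789 and 761 FPKM (-0.05), and Cox7b the lowest, 147 and 144 FPKM (-0.04). Cox5a and the zinc-binding Cox5b, which face the matrix, were at 316 and 310.2 FPKM (-0.03) and at 385 and 349 FPKM (-0.14). Cox6b1, on the other face of the membrane, was at 623 and 537 FPKM (-0.22). The small membrane subunits Cox6c and Cox7c were at 285 and 264 FPKM (-0.11) and at 366 and 323 FPKM (-0.18). With the TMM factor the median of the complex was 0.09, and 3 of 11 subunits were below 0, so the side of 0 is set by the scaling.

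Ndufa4 and Cox7a2 stood below the rest of complex IV. Ndufa4, named for complex I but known as a subunit of complex IV, was at 453 and 334 FPKM (-0.44). Cox7a2, at the edge where complex IV meets complex III in supercomplexes, was at 205 and 160.2 FPKM (-0.35). Both have paralogues that read the other way. Ndufa4l2, a paralogue known as a target of hypoxia-inducible factor, read 3.33 FPKM (WT) and 6.08 FPKM (KO), about 59.5 and 109.7 reads. Its log2 ratio of 0.71 was the highest of the 89 measured members and ran from 0.41 to 0.89 over the pseudocounts and scalings tried. It made up 0.730% of the summed FPKM of the pair in WT and 1.79% in KO, so Ndufa4 was far more abundant in both. Cox7a2l, the supercomplex factor, was at 150 and 162 FPKM (0.12). Among Cox7a1, Cox7a2 and Cox7a2l, the share of Cox7a2 was 55.3% in WT and 47.1% in KO, and that of Cox7a2l 40.4% and 47.7%.

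The other tissue-restricted isoforms of complex IV were low in both libraries. Cox7a1, the heart and muscle form, was at 15.6 and 17.6 FPKM (0.16), and Cox6b2, known from testis, at 3.89 and 4.65 FPKM (0.21). The 3 members under 1 FPKM in both libraries were also of this class. Cox6a2, a heart and muscle form, was at 0.23 FPKM in both, Cox8b at 0.14 and 0.28 FPKM, and Cox4i2 at 0.14 FPKM in KO, with a listed value of 0 in WT. At the estimated depth these correspond to no more than about 2.98 reads each, so no difference was detectable. The general forms Cox4i1, Cox6a1 and Cox8a held over 99.9% of the FPKM of their pairs, the lowest share being 99.95% for Cox8a in KO. Cox6b1 held 99.4% in WT and 99.1% in KO.

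In ATP synthase, as deposited, 3 large subunits of the catalytic head read slightly higher in KO and most of the small subunits lower. Atp5b, the catalytic beta subunit, had the highest level of all 92 members, 983 and 1073 FPKM (0.13). Atp5a1, the alpha subunit, was at 463 and 529.8 FPKM (0.19), and Atp5c1, the gamma subunit that forms the rotating shaft, at 272 and 293 FPKM (0.11). Atp5d, the delta subunit, was at 322 and 315 FPKM (-0.03). Atp5e, the small epsilon subunit, was at 302 and 220.4 FPKM, giving the lowest log2 ratio of the 75 subunits (-0.45). Within the head, the 5 subunits were therefore not in parallel.

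The stalk and membrane subunits had a median of -0.22, with 6 of 7 below 0, or -0.02 and 4 of 7 with the TMM factor. Atp5f1, the b subunit of the outer stalk, was at 196 and 217 FPKM (0.15), and Atp5o, which joins the stalk to the head, at 247 FPKM in both (0.00). Atp5h was at 321 and 306 FPKM (-0.07). Atp5j2, Atp5l and Atp5k, small proteins of the membrane part, the last 2 of which help ATP synthase to form dimers, were at 306 and 263 FPKM (-0.22), 340.3 and 292 FPKM (-0.22), and 193 and 154 FPKM (-0.32). Atp5j, coupling factor 6 of the stalk, was at 319.5 and 255 FPKM (-0.33). The sum over the head amounted to 122% of the sum over stalk and membrane subunits in WT and 140.4% in KO.

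Subunit c, which forms the proton-driven ring, is encoded by 3 genes whose mature protein is known to be the same. Atp5g3 was the most abundant, at 550.4 and 518 FPKM (-0.09), and held 54.2% of their summed FPKM in WT and 54.0% in KO. Atp5g2 was at 251 and 216 FPKM (-0.22), with shares of 24.8% and 22.5%. Atp5g1, the form known to vary with demand, was at 213 and 225 FPKM (0.08), with shares of 21.0% and 23.5%. Atp5g2 stood above Atp5g1 in WT and below it in KO, by ratios under 1.25-fold.

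Assembly factors, which help to build the complexes without remaining in them, were expressed far below the subunits. All 9 lay under 20 FPKM in both libraries, with median levels of 11.1 (WT) and 8.96 FPKM (KO), against 159.8 and 165 FPKM for the 75 subunits. Their median log2 ratio was -0.22, and all 7 complex I assembly factors read below 0, where 69.6% of all measured genes did. Of these 7, 5 were also below 0 with the TMM factor, while Ndufaf5 (0.09) and Ndufaf6 (0.15) were above it. Ndufaf1, which takes part in joining the membrane arm, was at 17.4 and 11.8 FPKM, and its ratio of -0.52 was the lowest of all measured members. Ndufaf2 was at 17.5 and 13.1 FPKM (-0.39), and Ndufaf3, at 18.1 and 13.7 FPKM (-0.38), had the highest level of the class. Its binding partner Ndufaf4 was at 11.8 and 9.95 FPKM (-0.22). Ndufaf7, a methyltransferase, was at 11.1 and 8.96 FPKM (-0.27). Ndufaf5 (4.75 and 4.43 FPKM, -0.08) and Ndufaf6 (7.87 and 7.69 FPKM, -0.03) were nearest to 0. The 2 members of the class with Atp5 symbols read higher in KO. Atp5s, coupling factor B, was at 3.47 and 4.60 FPKM (0.33), and Atp5sl, a related protein linked to complex I assembly, at 6.84 and 7.72 FPKM (0.15). At 1.25-fold, 3 of 9 (33.3%) were lower and 1 (11.1%) was higher, near the shares of all measured genes. The class median relative to all genes was -0.04, but this closeness depended on the minimum level. At a minimum of 10 FPKM the class median was -0.38, against -0.14 for all genes. Of the 7 complex I factors alone, 3 (42.9%) were lower at 1.25-fold, against 32.9% of all measured genes. With the TMM factor 1 of 7 (14.3%) was, against 17.7%.

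The ratio of a subunit varied with the length of its transcript. As deposited, of 30 subunits with transcripts under 700 bases, 27 (90%) read below 0 and 14 above the median of all genes. Of 29 with 700 to under 1500 bases, 20 (69.0%) read below 0, near the 69.6% of all measured genes. Of 16 with 1500 bases or more, 9 (56.25%) read above 0, against 30.3% of all measured genes. These all-gene shares cover any length and level. Shares on either side of 0 among genes of like length and level were not computed. Across the 75 subunits the ratio and log2 length had a Pearson's r of 0.50 and a Spearman's rho of 0.52, given as a description because genes of 1 pair of libraries are not independent. Over 2061 other genes at a mean of 40 FPKM or more, r was 0.16 and rho was 0.22, lower than in the subunits, and this difference was not tested. Among those genes the median ratio was -0.38 for 43 genes with transcripts under 500 bases, -0.22 for 192 from 700 to under 1000 bases and 0.00 for 407 from 3000 to under 5000 bases. What length stands for here was not tested.

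Set against other genes of like transcript length at 40 FPKM or more, 63 of 74 subunits lay above their bin's median, by 0.13 at the median. Complex II lay 0.34 above, complex III 0.15, complexes IV and V 0.13 each and complex I 0.11. On that scale Sdhd (0.70) and Sdhb (0.43) were above all 70 subunits of the other complexes, but 14 of those 70 were above Sdha (0.24). Core and accessory subunits of complex I came closer, at 0.15 and 0.11, than by their own medians. Ndufa4 (-0.16), Ndufs4 (-0.20) and Atp5j (-0.10) lay below genes of like length, whereas Atp5e, the lowest by its own ratio, lay only 0.07 lower than its bin (-0.07). This comparison was chosen after the data were seen.

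**Figure D4:**
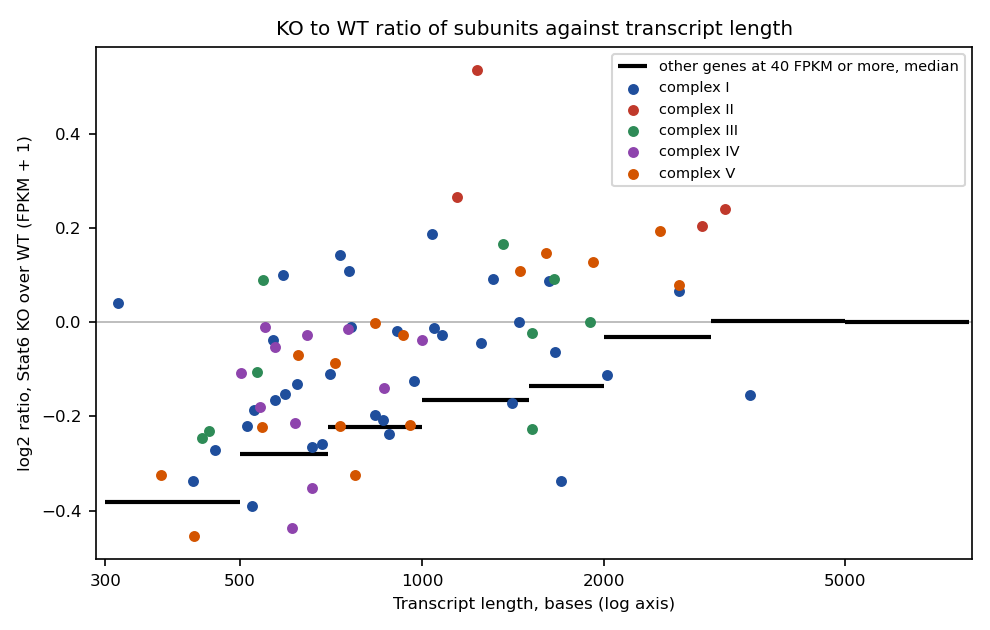
Log2 ratio of Stat6 KO over WT (y axis) against transcript length in bases (x axis, log scale) for the 74 subunits at a mean of 40 FPKM or more, coloured by complex. Black bars are medians of other genes at 40 FPKM or more by length bin, from -0.38 under 500 bases to -0.00 at 5000 or more (the outer bars end near the axis limits), and 63 of 74 subunits lie above their bar.

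Genes that serve the pathway outside these families were listed separately. Among 39 further assembly factors the median log2 ratio was -0.15. At 1.25-fold 1 was higher, where 11.4% of all measured genes were, and 11 were lower (28.2%, against 32.9% of all measured genes). The highest were Lyrm7, a complex III factor (0.75 and 1.25 FPKM, 0.36), and Coa7 (7.77 and 9.73 FPKM, 0.29). The lowest were Pet117, listed at 0 in KO and at 1.59 FPKM in WT, and Cox18 (8.78 and 5.52 FPKM, -0.58), which inserts a complex IV subunit. Complex II assembly factors did not stand out as its subunits did, with Sdhaf3 at 0.18, Sdhaf2 at -0.11, Sdhaf4 at -0.17 and Sdhaf1 at -0.32. Atpif1, the inhibitor of ATP synthase, was at 69.1 and 70.02 FPKM (0.02), and Usmg5, a small ATP synthase protein, at 304 and 255 FPKM (-0.25).

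The 13 genes of coenzyme Q synthesis had a median of -0.01, with none higher and 2 lower at 1.25-fold after 1 FPKM was added, beside all-gene shares of 11.4% and 32.9%. They ran from Pdss2 (8.74 and 11.0 FPKM, 0.30) and Coq9 (33.1 and 39.9 FPKM, 0.26) to Coq4 (20.4 and 15.5 FPKM, -0.37) and the methyltransferase Coq3 (10.6 and 6.46 FPKM, -0.64). The 14 regulators of mitochondrial biogenesis had a median of -0.24. At 1.25-fold 2 of 14 were higher and 6 of 14 lower, beside the same all-gene shares of 11.4% and 32.9%. Ppargc1a, the coactivator PGC-1alpha, was at 3.15 and 7.60 FPKM (1.05), the only gene of these lists at least 2-fold higher in KO. Esrra, the nuclear receptor it acts through, was at 72.0 and 95.9 FPKM (0.41). At the other end its relative Pprc1 was at 15.1 and 7.89 FPKM (-0.85), and Gabpb1, a GABP subunit, at 12.1 and 8.65 FPKM (-0.44). Nrf1 was at 8.02 and 8.43 FPKM (0.06), and Tfam, which packages and transcribes mitochondrial DNA, at 11.7 and 9.22 FPKM (-0.31). Regulators thus read in both directions, over a wider range than the subunits.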

How the data were processed

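A BGISEQ-500 gave 50-base reads of total RNA, from 1 end of each fragment, per the labels' protocols. The authors deposited FPKM values per gene, per the file headers, with 2 decimals. HISAT, Bowtie2, RSEM and build mm9 are named, per the submitters' processing notes. For their roles, versions and gene annotation, each was not given in the sources used here. The 2 tables were joined on Entrez gene number. Groups came from the genotype labels, with 1 library each, so no test was run.

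Log2 ratios used a pseudocount of 1, which understates the difference of low genes. The members, complexes and lists were chosen with earlier results of these data known. Named genes include, per complex, the 2 highest and 2 lowest ratios and the highest and lowest levels. Of other lists the 2 highest and 2 lowest are named. Nrf1, Tfam and the Sdhaf genes were added after their values were seen. The values of 1 complex I subunit are not reported here.

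Transcript lengths were medians over the GENCODE M21 transcripts that match a RefSeq mRNA. Depth was searched below 30000000 reads, using short RNA genes, for the value that brought FPKM steps nearest to whole reads. With it, 59.8% of low values of single-transcript coding genes in WT and 61.3% in KO lay within 0.1 read of a whole number, where evenly spread values would give 20%. Promoter coordinates are those of GRCm38.p6 and were not set against mm9.

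Alternatives were pseudocounts of 0.1 and 5, an unweighted TMM factor (trims of 30% and 5%), the median of all genes set to 0, a total without ribosomal, mitochondrial and the 20 most abundant genes, other minimum levels and folds, and means. Only the TMM factor and calls past 2-fold were tested on simulated data, with changes larger than any seen in the subunits. Medians by complex, length bins, the depth search and the motif search were not tested in this way. Python 3.11.15, pandas 2.3.3 and numpy 2.4.6 were used.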

Additional observations from a re-analysis of the deposited data

How the results depend on the processing

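Scaling decided the sign of most small ratios. The number of subunits above 0, 21 as deposited, was 54 with the TMM factor, 51 with the median of all genes set to 0, and 32 with a total that left out ribosomal, mitochondrial and the 20 most abundant genes. The subunits at least 1.25-fold higher, 1 as deposited, were 10 with the TMM factor and 9 with the median set to 0. Those at least 1.25-fold lower, 8 as deposited, were 0, 0 and 3 under these scalings in the same order, and 5 with a pseudocount of 5. No subunit passed 2-fold or 1.5-fold as deposited, and lowering the threshold to 1.25-fold gave 1 higher and 8 lower. Medians and summed ratios of each complex moved by less than 1.5-fold under all alternatives run. That limit is wider than the summed KO to WT ratios of the complexes themselves, 0.916 (complex IV) to 1.24 (complex II). It therefore does not show that these differences are stable. Depth limits most the 3 members under 1 FPKM. Medians of complexes I, III, IV and V changed sign with the TMM factor. The comparison with genes of like length was added after the data were seen. No paired analysis was possible because each genotype has 1 library.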
